A study of Mus musculus with 6 samples.

Results

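Cell cycle and DNA replication genes were examined in starry-sky tumor-associated macrophages (SS-TAMs) and in germinal center macrophages (GCMs). The set was chosen by gene name and held 33 genes of mitosis, chromosome replication and deoxynucleotide supply. Of these, 32 were among the 19938 genes measured, and Ccnb1 was not analysed here. Where several probe sets name a gene and no other, the brightest by mean over the 6 arrays stood for it.

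SS-TAMs were cut by laser from frozen subcutaneous xenografts of BL2 (a line of human Burkitt's lymphoma cells) that had reached 1.44 cm2 in female BALB/c SCID mice of 6 to 12 weeks, and were recognised by staining for CD68. GCMs were cut from germinal centers of female CSF1R EGFP transgenic BALB/c mice of 6 to 12 weeks that had received 2 doses of sheep red blood cells. Each of the 3 mice per group gave 1000 captured cells and 1 Affymetrix Mouse Gene 1.0 array. SCID mice lack mature T and B cells, and in the reporter mice the Csf1r promoter drives the fluorescent protein. The tumor cells around SS-TAMs were human, whereas the cells around GCMs were mouse, and the array was made for mouse genes. So genotype, tissue, species of the neighboring cells and the way of choosing cells differ together between the groups and cannot be told apart. How far the array read transcripts of human cells was not tested. For the GCM mice the tissue is labelled spleen, while the source of the sample is given as lymph nodes.

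A cell that divides has to copy its DNA and then separate the copies, and the genes for these steps are switched on in waves. Helicase subunits of the MCM family, the sliding clamp PCNA and the enzymes that make deoxynucleotides serve S phase, whereas cyclins A and B with CDK1, the Aurora and Polo kinases, kinesin motors and the kinetochore serve mitosis. Ki-67, the product of Mki67, marks cycling cells in tissue sections. Germinal center B cells are among the fastest dividing cells of the body, and macrophages of germinal centers engulf their dying neighbors. Captured cells are a bulk sample, in which fewer cells of a type and less RNA per cell cannot be told apart.

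Many promoters of these genes carry a few short sequence elements. Such elements were searched on both strands in the windows that RefSeq gives from 250 bases before to 50 bases after a gene start (build GRCm38.p6), and 27 of the 32 genes had such a window (29 windows). The cell cycle homology region, read by MuvB complexes at mitotic genes, was searched as TTTGAA or TTCGAA, the CCAAT box of the factor NF-Y as CCAAT, and the E2F site of S phase genes as TTTCCCGC, TTTGGCGC, TTTCGCGC or TTTGCCGC. The E2F words can overlap each other where they run together. The homology region was found in 17 of 29 windows (58.6%), against 19.2% of all 32817 windows. The CCAAT box was found in 25 (86.2%), against 37.4% of all windows, and an E2F word in 5 (17.2%), against 2.26%. A match is a description of letters and not of a bound site.

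The 250 bases before the start are shown for 4 of the genes, with matches in capitals. Kif11 and Pcna are shown because they had the smallest adjusted p after Tk1, and Tk1 and Nusap1, the others of the 4 smallest with a window, held no match. Top2a and Mcm6 were chosen after the matches were seen, as a mitotic promoter with 4 homology regions and 6 CCAAT boxes and as a replication promoter with 3 E2F words, of which a pair overlaps.
Kif11 (chr19:37376132-37376381, plus strand): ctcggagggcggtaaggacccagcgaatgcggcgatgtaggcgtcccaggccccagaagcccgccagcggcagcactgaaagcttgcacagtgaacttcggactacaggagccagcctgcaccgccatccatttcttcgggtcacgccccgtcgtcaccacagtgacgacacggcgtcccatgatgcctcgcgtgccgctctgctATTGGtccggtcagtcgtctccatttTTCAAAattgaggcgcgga
Pcna (chr2:132253181-132253430, minus strand): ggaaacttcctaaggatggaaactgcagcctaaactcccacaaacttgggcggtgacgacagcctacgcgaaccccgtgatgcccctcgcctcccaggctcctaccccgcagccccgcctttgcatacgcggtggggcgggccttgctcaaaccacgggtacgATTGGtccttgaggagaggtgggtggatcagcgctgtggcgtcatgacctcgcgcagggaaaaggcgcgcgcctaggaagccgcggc
Top2a (chr11:99024190-99024439, minus strand): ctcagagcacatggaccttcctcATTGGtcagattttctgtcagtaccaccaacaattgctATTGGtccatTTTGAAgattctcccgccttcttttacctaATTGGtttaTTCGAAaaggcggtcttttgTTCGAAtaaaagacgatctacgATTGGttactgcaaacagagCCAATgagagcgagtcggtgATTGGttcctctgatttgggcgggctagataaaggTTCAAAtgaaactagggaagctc
Mcm6 (chr1:128359706-128359955, minus strand): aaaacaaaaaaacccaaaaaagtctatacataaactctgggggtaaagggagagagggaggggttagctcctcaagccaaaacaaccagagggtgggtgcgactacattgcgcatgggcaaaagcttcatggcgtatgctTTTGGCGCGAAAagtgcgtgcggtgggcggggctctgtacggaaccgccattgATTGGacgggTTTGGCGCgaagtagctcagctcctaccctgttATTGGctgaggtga

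Most of the 32 genes were of modest intensity in both groups, though brighter than most genes. Array medians over all probe sets were 6.3 to 6.5 for SS-TAMs and 6.1 to 6.2 for GCMs, in the linear units that the authors deposited. The upper range was less alike: the top percentile of probe sets began at 241.5 to 283.7 on SS-TAM arrays and at 613.8 to 663.8 on GCM arrays. The cause of that difference was not tested. For the 32 genes the median lay between 8.75 and 10.4 in SS-TAMs and between 9.45 and 14.5 in GCMs. The median of the 32 stood at percentile 66.7 to 73.7 of all genes in SS-TAMs and 72.5 to 83.2 in GCMs. Of the 32, 13 (40.6%) stayed below 2 times the array median on every array, against 73.3% of all genes. The 13 included Cdk1, Plk1, Bub1, Cenpf, Tpx2, Ube2c and Rrm2. No detection calls were used, so a low value is a level and not absence, and fold changes of such genes can understate a change. Pcna was the brightest, with a lowest value of 156.6 on the array of SS-TAM replicate 2.

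Over all genes, correlation of log2 intensities was 0.957 to 0.966 within SS-TAM arrays, 0.981 to 0.988 within GCM arrays and 0.887 to 0.915 between the groups. SS-TAMs had higher levels of 11 of 19 core macrophage markers and a lower level of none, against 5.16% and 4.76% of all genes. Adgre1, the gene of F4/80, was at 86.1 ± 18.9 in SS-TAMs and at 5.03 ± 0.12 in GCMs (SD, n = 3 each), so that this marker lay below the median intensity in the cells labelled as GCMs. T cell transcripts went the other way, with 7 of 13 markers lower and none higher in SS-TAMs, against 4.76% and 5.16% of all genes. Of the core macrophage markers, Cd14 and Itgam lay below the array median on all arrays of both groups. Fcgr1 and Cd163 also lay below the array median on all GCM arrays. The remaining core macrophage markers lay above it on every GCM array, among them Lyz2 (mean 396.9), Aif1 (167.9) and Cd68 (72.4). Lyz2 and Aif1 were not called between the groups (adjusted p = 0.068 and 0.67 from limma).

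Between the groups, Tk1 was the only one of the 32 genes that passed the test, and it was higher in SS-TAMs. One gene of 32 called higher compares with 5.16% of all 19938 genes, and 0 of 32 called lower with 4.76% of all genes (Benjamini-Hochberg adjusted p under 0.05 from limma). Over all genes 1028 were higher and 950 lower, and 721 were higher and 1199 lower once each array was centred on its median. At an unadjusted p under 0.05, Tk1 was higher, as were 15.2% of all genes, and Pcna, Kif11 and Ccna2 were lower, as were 10.5% of all genes. The log2 fold change, SS-TAM minus GCM, was negative for 25 of the 32 genes and for 40.0% of all genes. Its median was -0.24 for the 32 genes and 0.041 for all genes. The standard errors ranged from 0.081 to 0.58, and 24 of the 32 genes had a 95% interval that lay within 1 log2 unit of 0 on either side. For the other 8 the interval reached a 2-fold decrease, and for none did it reach a 2-fold increase.

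**Figure D1:**
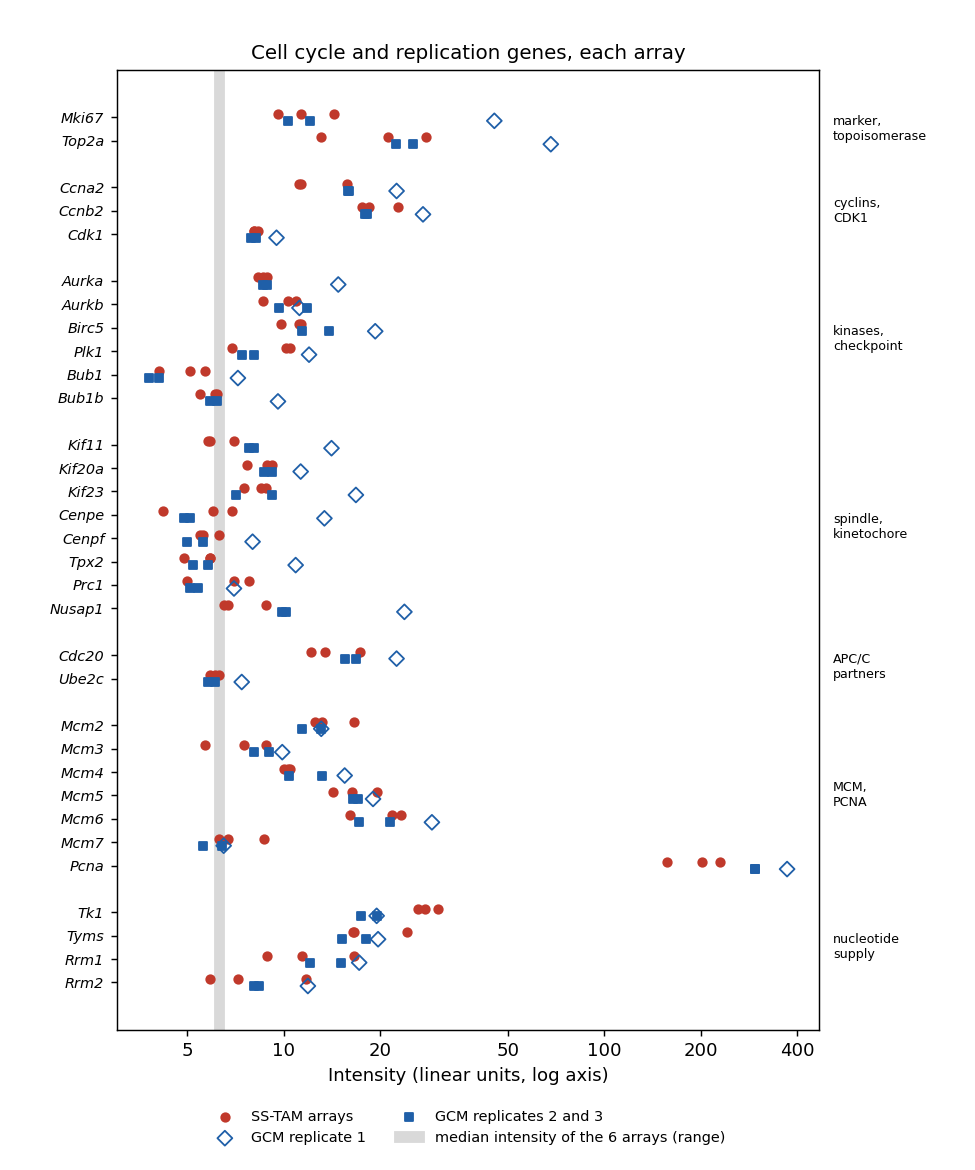
Intensity (linear units, log axis) of the 32 genes on each array, with SS-TAM arrays in red above and GCM arrays in blue below on each line; the open diamond is GCM replicate 1 and the grey band the range of array medians, 6.1 to 6.5. The diamond lies to the right of both other GCM arrays for 29 of 32 genes, and Pcna and Tk1 are among the genes whose groups do not overlap.

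Tk1, Tyms, Rrm1 and Rrm2 supply deoxynucleotides. Tk1, the cytosolic thymidine kinase that salvages thymidine in S phase, was at 27.5, 26.3 and 30.2 on the SS-TAM arrays, against 19.5, 19.5 and 17.4 on the GCM arrays. All SS-TAM arrays lay above all GCM arrays, and the level was 1.49-fold higher (log2 fold change 0.57 with a standard error of 0.081, adjusted p = 0.012). These values are of the brighter probe set, and the call rested on it alone. The dimmer one was at 7.0, 12.4 and 8.9 on SS-TAM arrays, against 7.2, 7.7 and 8.3 on GCM arrays. Its groups overlapped, and its lowest value was on SS-TAM replicate 1. The dimmer one gave 0.25 (standard error 0.21, adjusted p = 0.48 over all probe sets), and the mean of both gave 0.41 (adjusted p = 0.062). The call of Tk1 was also lost without GCM replicate 2 or GCM replicate 3 (adjusted p = 0.052 and 0.0504). Scaling arrays to macrophage markers shifted all genes downward and gave Tk1 a value of -0.90, which relative to the median of all genes was 0.53, as it was unscaled. Tyms, the thymidylate synthase that makes thymidylate anew, was at 24.3, 16.6 and 16.5 in SS-TAMs, against 19.7, 18 and 15.2 in GCMs (adjusted p = 0.75). Rrm1 and Rrm2, the large and small subunits of ribonucleotide reductase, had log2 fold changes of -0.30 and -0.23 (adjusted p = 0.48 and 0.63). Both were highest on GCM replicate 1 (17.2 for Rrm1 and 11.9 for Rrm2), closely followed by SS-TAM replicate 1 (16.6 for Rrm1 and 11.7 for Rrm2), so that the groups overlapped.

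Pcna and the MCM genes act at the replication fork. Pcna, the clamp that holds DNA polymerases on their template, was at 229.7, 156.6 and 201.3 on SS-TAM arrays, against 371.6, 294.8 and 294.8 on GCM arrays. The groups did not overlap, and the log2 fold change was -0.72 (standard error 0.17, 95% interval -1.13 to -0.31). Its adjusted p of 0.053 missed the threshold over all genes, and it passed after centring arrays on their medians (adjusted p = 0.037), without dim probe sets (adjusted p = 0.033), with the replicate number as a block (adjusted p = 0.033) and, for both of its probe sets, when every probe set was tested on its own (adjusted p = 0.0497 and 0.0466). The 2 probe sets of Pcna gave nearly the same values on every array, so they were not taken as separate evidence. It did not pass with any 1 array left out (adjusted p 0.055 to 0.15), with the mean of its probe sets (0.0505), with eBayes trend and robust (0.068), with 16 units added before log2 (0.076) or with array weights (0.086). After quantile normalization its log2 fold change was -0.23 (adjusted p = 0.35).

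The MCM subunits form the ring that unwinds DNA ahead of the fork. Mcm5 was at 19.5, 14.3 and 16.3 in SS-TAMs, against 19.0, 16.5 and 17.1 in GCMs, and Mcm6 at 21.7, 23.2 and 16.1, against 29.0, 17.2 and 21.5. For both genes the groups overlapped (adjusted p = 0.72 and 0.73). Mcm2 and Mcm7 had positive log2 fold changes of 0.16 and 0.22, and Mcm3 and Mcm4 negative ones of -0.31 and -0.33 (adjusted p 0.23 to 0.45 for the 4 genes). The 95% interval of Mcm2 ran from -0.15 to 0.47 and that of Mcm4 from -0.68 to 0.034.

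Mki67 and Top2a were the genes in which 1 array differed most from the others. Mki67 was at 11.3, 9.6 and 14.4 on SS-TAM arrays, against 45.4, 10.3 and 12.1 on GCM arrays. The SS-TAM arrays thus covered the range of GCM replicates 2 and 3, whereas GCM replicate 1 stood alone (log2 fold change -0.62, 95% interval -2.04 to 0.80, adjusted p = 0.53). Top2a, the topoisomerase that untangles sister chromatids, was at 27.8, 13.1 and 21.1 in SS-TAMs, against 68.1, 25.4 and 22.4 in GCMs. GCM replicate 1 again stood alone, and the groups overlapped (log2 fold change -0.78, 95% interval -1.99 to 0.44, adjusted p = 0.36). Without GCM replicate 1 the log2 fold changes were 0.056 for Mki67 and -0.27 for Top2a. A second probe set of Top2a lay below the array median on all arrays (log2 fold change -0.33, adjusted p = 0.066 over all probe sets).

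Among the mitotic cyclins and Cdk1, only cyclin A2 had groups that did not overlap. Ccna2 was at 15.8, 11.2 and 11.3 in SS-TAMs, against 22.5, 16 and 15.9 in GCMs, so the highest SS-TAM array lay just under the lowest GCM array (log2 fold change -0.51, standard error 0.20, adjusted p = 0.18). With the replicate number as a block it passed (adjusted p = 0.029). Ccnb2, a B-type cyclin, was at 17.5, 18.5 and 22.8, against 27.2, 18.2 and 17.9 in GCMs, and its kinase partner Cdk1 at 8.3, 8.1 and 8.1, against 9.5, 7.9 and 8.2. In both genes GCM replicate 1 was the highest array and the groups overlapped, and the interval of Cdk1 was narrow, from -0.26 to 0.14 on the log2 scale.

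None of the 6 genes of mitotic kinases and their partners passed the test. Birc5 (survivin), which guides Aurora B to the centromere, was at 11.3, 11.2 and 9.8 in SS-TAMs, against 19.3, 13.8 and 11.4 in GCMs (log2 fold change -0.43, adjusted p = 0.23). Its groups were apart by 0.1 intensity units only. Aurka and Aurkb, the Aurora kinases of spindle poles and of centromeres, gave log2 fold changes of -0.28 and -0.14, and Bub1b, a checkpoint protein, -0.25 (adjusted p 0.45 to 0.50 for these 3). Plk1, the Polo kinase of mitotic entry, was at 10.5, 6.9 and 10.2, against 12.0, 7.4 and 8.1 in GCMs, a log2 fold change of 0.013. Bub1, a kinase of the spindle checkpoint, was below the array median on all arrays except GCM replicate 1, where it was at 7.2. Among these 6 genes only Aurkb was not highest on GCM replicate 1 (11.2, against 11.8 on GCM replicate 3).

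Among 8 genes of the spindle and kinetochore, Nusap1 and Kif11 had the most negative log2 fold changes. Nusap1, which bundles spindle microtubules near chromosomes, was at 6.7, 6.5 and 8.8 in SS-TAMs, against 23.8, 9.9 and 10.2 in GCMs (log2 fold change -0.88, standard error 0.36, adjusted p = 0.20). Kif11, the kinesin that pushes the spindle poles apart, was at 7.0, 5.8 and 5.9, against 14.1, 8.1 and 7.8 in GCMs (log2 fold change -0.63, standard error 0.24, adjusted p = 0.18). For both genes all SS-TAM arrays lay below all GCM arrays, and without GCM replicate 1 the values were -0.47 and -0.36. Of the 32 genes, 5 had SS-TAM arrays entirely below the GCM arrays (Pcna, Ccna2, Birc5, Kif11 and Nusap1), as had 11.6% of all genes, and 1 had them entirely above (Tk1), as had 18.5% of all genes. Kif23, a motor of the central spindle, was at 8.8, 8.5 and 7.5, against 16.8, 9.2 and 7.1 in GCMs, and Cenpe, the kinetochore kinesin, at 6.9, 4.2 and 6.0, against 13.4, 5.1 and 4.9. In each the groups overlapped and GCM replicate 1 was far above the rest. Kif20a, Cenpf, Tpx2 and Prc1 had log2 fold changes of -0.17, -0.069, -0.32 and 0.17 (adjusted p 0.41 to 0.83). Prc1, which cross-links midzone microtubules, was among the few genes highest on an SS-TAM array, at 7.8 on replicate 1.

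Cdc20 and Ube2c work with the anaphase-promoting complex, the ubiquitin ligase that ends mitosis. Cdc20, its activator, was at 17.3, 12.2 and 13.5 in SS-TAMs, against 22.5, 16.8 and 15.5 in GCMs (log2 fold change -0.35, adjusted p = 0.30). Ube2c, its ubiquitin-conjugating enzyme, was at 6.1, 5.9 and 6.3, against 7.4, 6.1 and 5.8, close to the array median on every array (log2 fold change -0.069, adjusted p = 0.69).

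**Figure D2:**
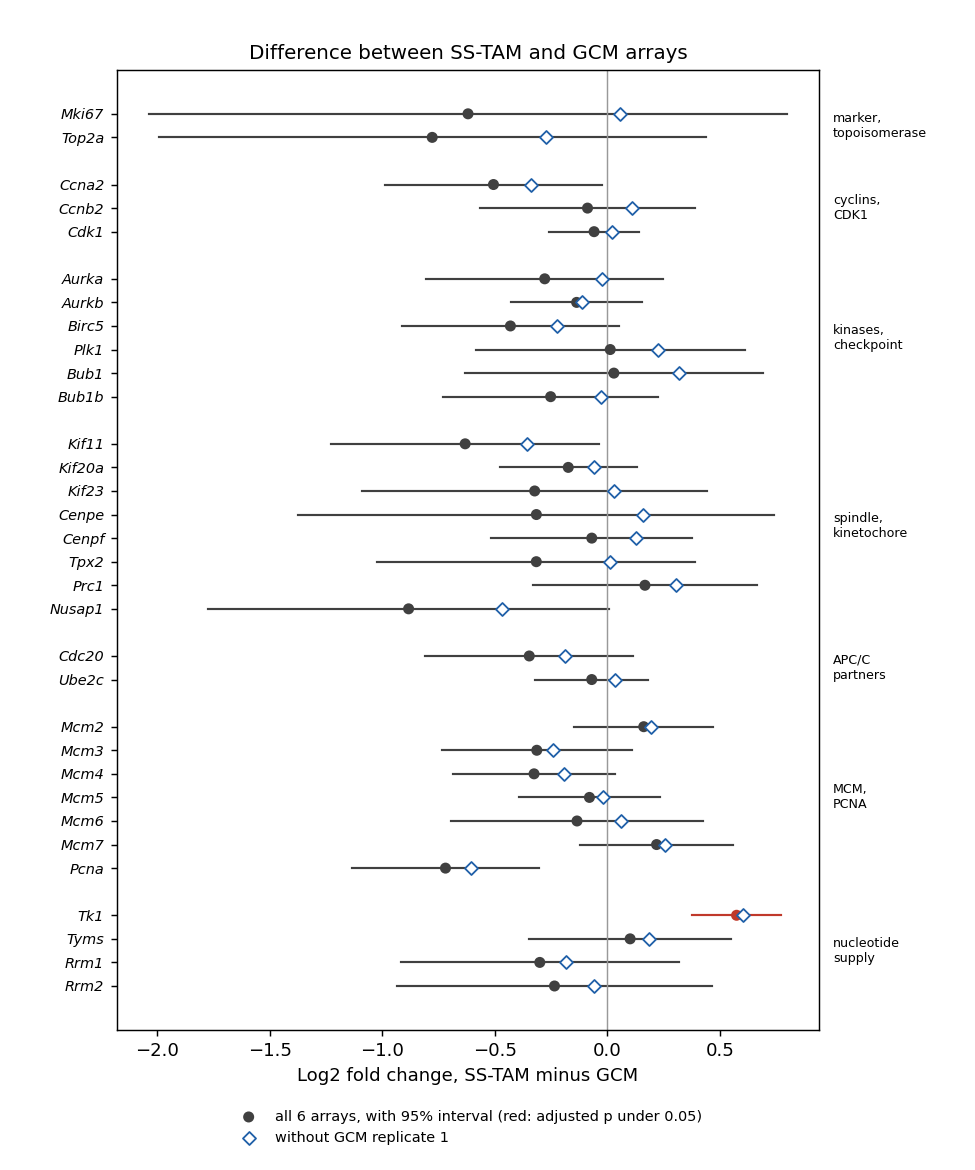
Difference of log2 intensity (SS-TAM minus GCM) for each of the 32 genes, with 95% intervals (limma, 3 arrays against 3; red marks an adjusted p under 0.05), and the value without GCM replicate 1 as an open diamond. Only Tk1 is red, at 0.57, and leaving out GCM replicate 1 moves the median over the genes from -0.24 to -0.003.

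The pattern that most of these genes shared was their level on 1 array. GCM replicate 1 was the highest of the GCM arrays for 29 of the 32 genes, against 26.6% of all genes, and the highest of all 6 arrays for 25, against 11.7% of all genes. The exceptions among GCM arrays were Aurkb, and Tk1 and Mcm2, in which it was level with another GCM array. Its level over the geometric mean of GCM replicates 2 and 3 ranged from 1.05-fold for Aurkb to 4.07-fold for Mki67, with a median of 1.43-fold. It was at least 1.5-fold for 15 of the 32 genes, against 1.97% of all genes, and at least 2-fold for 5 (Mki67, Top2a, Cenpe, Nusap1 and Kif23), against 0.492%. Of all 19938 genes, 8 were raised on that array at least as much as Mki67, Mki67 included. By role, the median was 1.88-fold for the 8 genes of spindle and kinetochore and 1.57-fold for the 6 of mitotic kinases and checkpoint, and it was 1.16-fold for the MCM genes with Pcna and 1.23-fold for deoxynucleotide supply. Other arrays of a group varied less: SS-TAM replicate 1 was above the mean of SS-TAM replicates 2 and 3 by a median of 0.16 on the log2 scale, with -0.016 for all genes. There the core macrophage markers were also above, by a median of 0.31, and the fibroblast and pericyte markers by 0.75.

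Without GCM replicate 1, 16 of the 32 genes had a negative log2 fold change and their median was -0.003, against 0.046 for all genes. Tk1 was then still called higher (adjusted p = 0.045) and none was called lower, against 1.75% and 2.54% of all genes. Markers of B cells were raised on the same array. All 14 B cell markers and all 10 germinal center B cell markers were highest there among the GCM arrays, and the summed intensity of the B cell markers was 139.1 to 148.8 on SS-TAM arrays and 536.5 on GCM replicate 1, with 207.4 and 215.0 on GCM replicates 2 and 3. For the germinal center B cell markers the sums were 104.4 to 116.5 on SS-TAM arrays, 254.6 on GCM replicate 1, and 109.6 and 111.2 on the other GCM arrays. The largest single part of these sums was Rgs13 on GCM replicate 1 and Basp1 on the other arrays. Similar sums on SS-TAM arrays and GCM replicates 2 and 3 thus do not mean that each marker was alike. Rgs13, a regulator of G protein signaling in germinal center B cells, was at 4.5, 4.2 and 4.1 in SS-TAMs, against 100.6, 16.2 and 16.2 in GCMs, and Cd79b, a chain of the B cell receptor, at 19.5, 18.9 and 20.3, against 123.9, 39.1 and 38.7. Of 52 other mitosis genes, 44 were highest on GCM replicate 1 among the GCM arrays. T cell markers did not share the pattern: 1 of 13 was highest on GCM replicate 1 among the GCM arrays, and their sum was 144.7 to 176.0 on SS-TAM arrays, against 1122.5 on GCM replicate 1 and 1387.3 and 1505.0 on the others. Core macrophage markers were highest there among the GCM arrays in 10 of 19 cases (52.6%), against 26.6% of all genes. Their median log2 level on that array was 0.080 above the mean of the other GCM arrays. The part of B cell transcripts in the levels of the cell cycle genes was not tested.

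**Figure D3:**
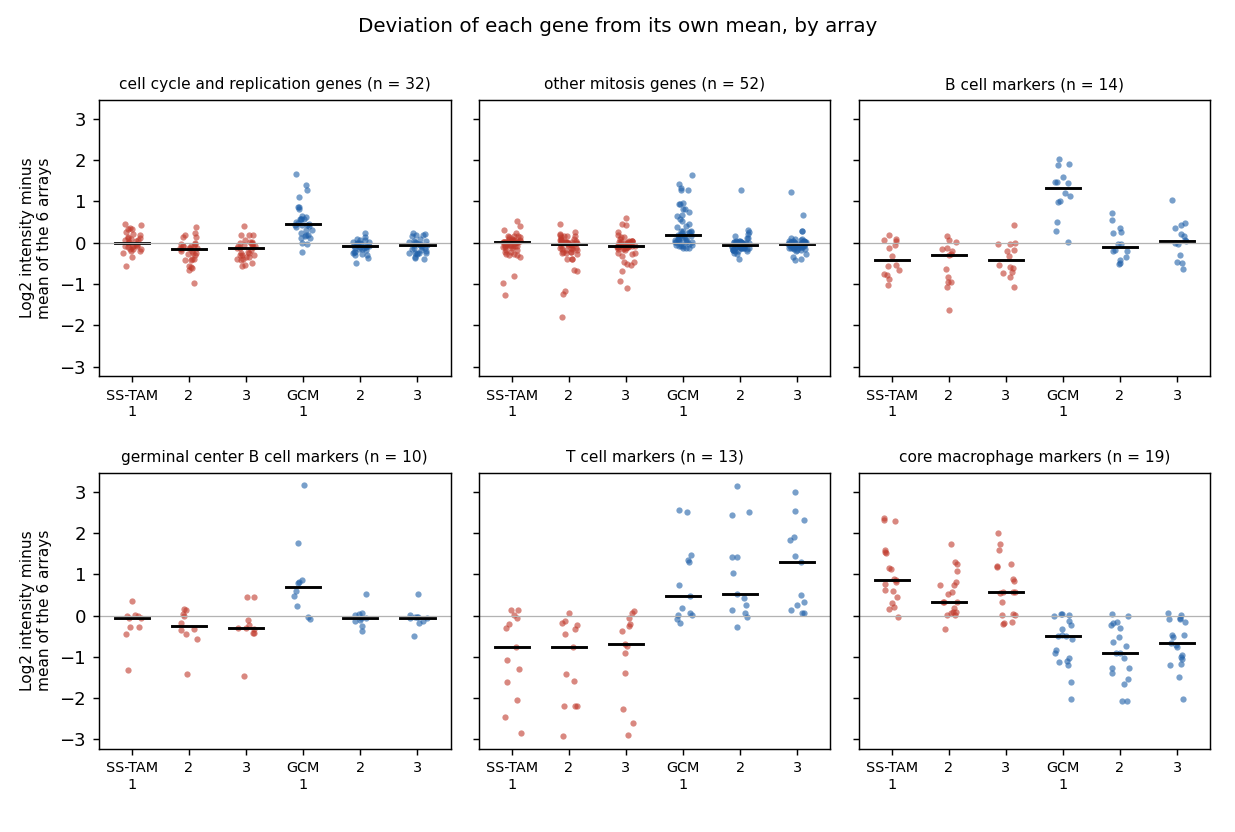
Log2 intensity of each gene minus its own mean over the 6 arrays, by array, for 6 gene lists; each point is 1 gene (red SS-TAM, blue GCM) and each bar the median of a list. The cell cycle, other mitosis, B cell and germinal center B cell lists have their highest median on GCM replicate 1, whereas T cell markers are high on all GCM arrays and macrophage markers on all SS-TAM arrays.

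The lists of further cell cycle genes, none of them among the 32, were read from the same fit. Of 43 other replication genes, 4 were called lower and none higher in SS-TAMs, with a median log2 fold change of -0.19. Of 52 other mitosis genes, Smc4 was lower and none higher, with a median of -0.056. Of 21 regulators of G1 and S phase, Ccnd2 and Rbl2 were lower and none higher, with a median of 0.10. Of 13 genes of growth arrest, Btg2 and Ccng2 were lower and Gadd45a was higher, with a median of -0.055. These counts stand against 5.16% of all genes called higher and 4.76% called lower.

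Smc4, a subunit of the condensin complexes that compact chromosomes, differed most. It was at 21.5, 14.9 and 24.4 on SS-TAM arrays, against 162.6, 126.1 and 121.9 on GCM arrays, 6.84-fold lower in SS-TAMs (log2 fold change -2.77, standard error 0.21, adjusted p = 0.0018). All GCM arrays lay far above all SS-TAM arrays, and Smc2, its partner in condensin, did not pass (log2 fold change -0.45, adjusted p = 0.38). Rpa3, the smallest subunit of the protein that coats single-stranded DNA, was at 9.7, 6.1 and 4.6, against 35.8, 40.6 and 30.4 in GCMs (log2 fold change -2.45, adjusted p = 0.0066), and the mean of its probe sets gave -1.66 (adjusted p = 0.0081). In both genes the groups did not overlap. Rpa1, the largest subunit, was at 9.2, 8.4 and 8.2, against 11.8, 10.7 and 10.7 in GCMs, lower by a smaller step (log2 fold change -0.36, adjusted p = 0.034). Prim1, the catalytic subunit of primase, was at 5.5, 4.7 and 5.2, against 15.8, 9.4 and 9.4 in GCMs (log2 fold change -1.13, adjusted p = 0.031), and Orc2, a subunit of the origin recognition complex, gave -0.54 (adjusted p = 0.040). All SS-TAM values of Prim1 lay below the array median. When single arrays were left out, Orc2 lost its call in all 6 cases, and Prim1 and Rpa1 in 5 (the highest adjusted p were 0.12, 0.093 and 0.12). Prim1 kept it without GCM replicate 1 and Rpa1 without SS-TAM replicate 1, whereas Smc4 and Rpa3 kept theirs without any 1 array.

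Ccnd2, a D-type cyclin that carries growth signals to CDK4 and CDK6, was at 34.4, 36.0 and 37.2 in SS-TAMs, against 81.1, 87.0 and 129.8 in GCMs. It fell by 1.44 on the log2 scale (standard error 0.18, adjusted p = 0.0088) and kept its call without any 1 array. Rbl2, the pocket protein p130 of quiescent cells, was at 6.9, 8.4 and 11, against 13.7, 14.8 and 15.2 in GCMs (log2 fold change -0.76, adjusted p = 0.048), and kept its call only when SS-TAM replicate 3 was the array left out (otherwise 0.069 to 0.17). In both genes the groups did not overlap, and GCM replicate 1 was the lowest GCM array.

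Gadd45a, a stress-induced gene of growth arrest and DNA damage, was the only gene of the 4 lists that was higher in SS-TAMs. It was at 54.6, 86.8 and 70.9, against 16.5, 12.0 and 9.7 in GCMs, a 5.59-fold increase (log2 fold change 2.48, standard error 0.25, adjusted p = 0.0042). Btg2, an antiproliferative gene induced by p53, was at 18.1, 6.9 and 8.7, against 35.2, 33 and 33 in GCMs (log2 fold change -1.71, adjusted p = 0.036). Ccng2, an unconventional cyclin linked to cell cycle arrest, was at 7.9, 7.7 and 7.1, against 11.9, 11.9 and 12.9 in GCMs (log2 fold change -0.69, adjusted p = 0.0040). So genes of growth arrest went both ways. Gadd45a and Ccng2 kept their calls without any 1 array, and Btg2 kept its call only when SS-TAM replicate 1 was the array left out (otherwise 0.077 to 0.13).

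**Figure D4:**
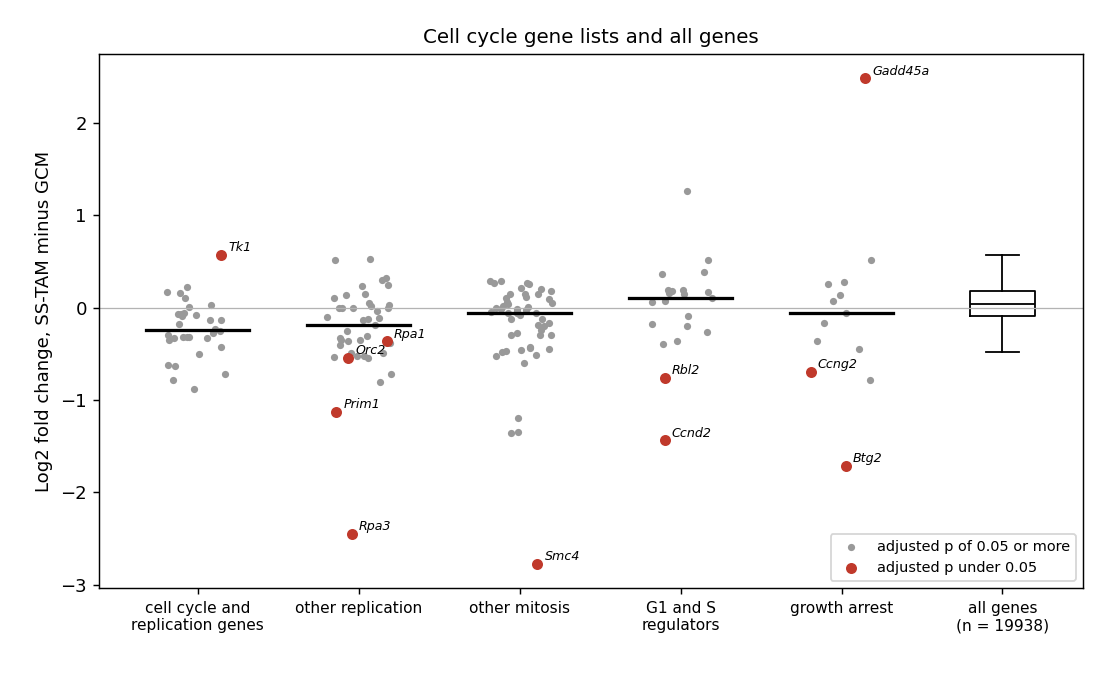
Difference of log2 intensity (SS-TAM minus GCM) for the 32 genes and of 4 further cell cycle lists; each point is 1 gene, red points had an adjusted p under 0.05 from limma, each bar is the median of a list, and the box of all 19938 genes shows quartiles with whiskers to 1.5 times the quartile range. Smc4 and Rpa3 lie lowest, at -2.77 and -2.45, and Gadd45a highest, at 2.48.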

How the data were processed

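RNA of 1000 laser-captured macrophages per mouse was amplified and hybridized to 1 Affymetrix Mouse Gene 1.0 array per mouse (3 SS-TAM, 3 GCM). The authors deposited linear intensities, given to 1 decimal (2.4 to 2543.6 over 28944 probe sets), and their notes list RMA (background correction, normalization and probe summary) and limma, with no version. Of the 32 genes, 12 have a value that is shared by 2 or more arrays. Names of probe sets came from the platform's annotation, with symbols updated by gene ID; 21789 name 1 gene, 1621 name several (left out) and 5534 are unnamed here. The test was limma's lmFit and eBayes on log2 intensities (two-sided, group as the only term, limma 3.58.1, R 4.3.3). P-values were adjusted by Benjamini-Hochberg across 19938 genes, and a gene was called at under 0.05. Means ± SD are of linear intensities. Each array is a separate mouse, and the number of arrays limits precision. An added alternative, every probe set tested on its own, was chosen after seeing the data. The 32 genes and all lists were chosen with earlier results of these data known. Reported genes were the 32, up to 4 called genes in each direction of each further list, and example markers chosen after their values were seen. Of the lists, 15 names had no probe set of their own here. Markers of erythroid, plasma and endothelial cells were also read: 1 of 7, 1 of 8 and 1 of 12 were higher, 1 plasma cell marker was lower, and of 12 fibroblast and pericyte markers 4 were higher. Of 14 B cell markers 2 were lower, and of 10 germinal center B cell markers none was called. These marker counts stand against 5.16% of all genes called higher and 4.76% called lower. The procedure was tested on simulated arrays. It called 76 of 100 genes changed by 1 log2 unit, 93 of 100 changed by 2 log2 units and 7 of 19738 unchanged genes. Some true 2-fold changes would thus be missed.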

Additional observations from a re-analysis of the deposited data

How the results depend on the processing

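When core macrophage markers set the scale, all genes had a median of -1.44 on the log2 scale, against 0.041 unscaled, and most genes were then called lower. Under that scaling 103 genes were higher and 19625 lower. Of the 32 cell cycle genes 32 were lower and 0 higher, with a median of -1.72, which is -0.28 relative to all genes, as it was without scaling. Plk1, Bub1, Prc1, Mcm2, Mcm7, Tk1 and Tyms turned to -1.47, -1.45, -1.31, -1.32, -1.26, -0.90 and -1.38, and the further lists had 43 replication, 52 mitosis, 20 G1 and S phase and 12 growth arrest genes lower. The shift common to all genes lies in the construction of that scaling. Of the 32, 1 was lower (Pcna) after median centring and also with dim probe sets left out, 0 were higher with the mean of a gene's probe sets and with a 2-fold criterion, and none was lower in the remaining settings without a block. Other replication genes called lower numbered 8 after centring, 1 with array weights, 2 with 16 units added before log2 and 2 with the 2-fold criterion. Other mitosis genes called lower numbered 2 after centring, with dim probe sets left out and with eBayes trend and robust. Among G1 and S phase regulators 1 was higher after quantile normalization, with dim probe sets left out and with trend and robust, and 1 was lower with 16 units added and with the 2-fold criterion. The 2-fold criterion left 1 growth arrest gene lower, and 278 genes higher and 475 lower in all. The cause of these changes was not tested.

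Leaving out each array in turn gave 271 to 1157 genes higher and 404 to 801 lower. Of the 32, 0 to 1 were higher and 0 lower, and their median ranged from -0.36 to -0.003. The further lists gave 1 to 3 replication genes lower and 0 to 1 higher, 1 to 2 mitosis genes lower, 1 to 2 regulators of G1 and S phase lower and 0 to 1 higher, and 1 to 2 growth arrest genes lower and 1 to 2 higher. Of the values of single genes with an array left out, 224 kept their side of the threshold, 28 lost a call and none gained one. Under marker scaling 7 reversed, as given above, 25 gained a call and 10 kept their side, and under the remaining settings 318 kept their side, 12 lost a call and 5 gained one.

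The labels number the replicates 1 to 3 in both groups. Deviations of same-numbered arrays from their group means correlated at 0.092, 0.084 and 0.018, and each array correlated best with its own number. Pairs of unlike number correlated at -0.085 to 0.012. The labels do not say whether same-numbered arrays were paired, and the main fit used no block. With the replicate block 610 genes were higher and 711 lower, and of the 32 genes 0 were higher and 2 (Ccna2 and Pcna) lower, with 3 other mitosis genes lower. Tk1 had an adjusted p of 0.057 with the block. No detection calls were used, so how many of these genes lay above background is not known.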

Other observations

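Of the 21 regulators of G1 and S phase, 3 had SS-TAM arrays entirely above the GCM arrays, against 18.5% of all genes. Another 4 had them entirely below, against 11.6% of all genes. Some that did not pass the test are given here, with Cdkn1b of the growth arrest list. They were chosen after their values were seen. Cdk6, a kinase that D-type cyclins activate, was at 36.7, 17.0 and 22.7 on SS-TAM arrays, against 9.0, 8.7 and 13.2 on GCM arrays (log2 fold change 1.26, adjusted p = 0.063 from limma). E2f1, a transcription factor of S phase entry, was at 6.0, 7.5 and 7.1, against 5.4, 5.1 and 5.4 in GCMs, near the array medians (adjusted p = 0.069). Cdkn1b, the inhibitor p27, was at 22.1, 29.9 and 30.1, against 39.7, 34.5 and 36.6 in GCMs (adjusted p = 0.11). Ccnd3, a D-type cyclin, was at 7.2, 8.6 and 10.1, against 10.9, 10.8 and 12.1 in GCMs (adjusted p = 0.13). In each of these genes every SS-TAM array lay on the same side of every GCM array.

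The genes most raised on GCM replicate 1 over the other GCM arrays included Cxcl13, Rgs13, Cd72, Scd1, Bptf and Mki67, in this order, with a pair of immunoglobulin light chain segments among them. Cxcl13, the chemokine that draws B cells into follicles, was at 11.4, 10.3 and 11.4 in SS-TAMs, against 167.7, 21.6 and 30.2 in GCMs. Postn, a fibroblast marker, was also among the 20 genes raised most there, at 210.1, 90.6 and 101.7 in SS-TAMs, against 44.3, 11.7 and 10.7 in GCMs, so the list is not one of B cell and cell cycle genes alone.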
